A study of Canis lupus familiaris with 81 samples.

Results

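The probes described here are 130 of the 2010 probes of a canine gene expression panel, chosen on their measured values because they were high in kidney. Levels are given as log2 CPM, the log2 of TMM-scaled CPM (counts scaled to a common library size), with a prior count of 2 added. A probe was selected where its level in each of 4 kidney regions was above every spleen and liver region and where its kidney mean was at least 1 above both the spleen mean and the liver mean. The rule was met by 131 probes, and 1 of them, RTS0112944, was left out by the selection. Since kidney, spleen and liver values chose the probes, those values are given as a description with no test, and so are differences between tumours and kidney. The quantities that the choice did not use are the levels in the tumours, how they varied from tumour to tumour, and which probes varied together.

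Osteosarcoma is a malignant bone tumour whose cells form osteoid matrix, and in dogs it arises most often in the limbs. Kidney tissue is made largely of tubule epithelium, which carries transporters and metabolic enzymes that are scarce in many other tissues, beside vessels, stroma and the filtering glomeruli. A probe that is high in kidney compared with spleen and liver can therefore read a tubule gene, or a gene of connective tissue or vessels that spleen and liver hold less of. The files identify probes by number without a gene name, and 0 of the 2010 identifiers matched the gene table used here. The kidney label of the probes and the tissue labels of the regions could therefore not be checked against known marker genes, and no gene function is given.

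In the GeoMx Digital Spatial Profiler assay, DNA-tagged probes are hybridised to a tissue section, the tags of a chosen region are released by light, and they are counted by sequencing. Values came from 68 regions of primary appendicular osteosarcoma from 24 tumours of dogs in a veterinary oncology consortium, placed on 2 tissue microarrays. Each array carried 2 regions of 10 of the tumours and 1 region of the other 14. Kidney, spleen and liver had 4 regions each, split over both arrays, and the labels do not say how many dogs they came from. No genotype, breed, age or treatment is given for any tumour or control tissue in the labels used here. The study set tumours with long disease-free intervals against tumours with short ones, but that grouping is not given per tumour in the labels, so it was not analysed here. Regions of 1 tumour share a dog, so each tumour counted as 1 sample, its value being the mean over regions within an array and then over both arrays.

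Total counts ranged from 17711 to 1069118 in the tumour regions, with a median of 211967, and from 92126 to 396058 in the control regions. In 6 tumour regions the total was under 50000. The 4 kidney regions lay closer in pairs across the arrays than within an array. Over the 130 probes the median absolute difference was 0.11 between kidney regions 1 and 3 and 0.15 between regions 2 and 4, against 0.20 to 0.28 for the other 4 pairs, and regions 1 and 2 lay on array 1. The labels do not say whether such a pair came from 1 piece of kidney, so an SD over 4 regions is the spread between these regions and may cover fewer separate pieces. In liver the same pairs were the closest, at 0.19 each, against 0.27 to 0.33 for the others. Probes for non-specific background could not be told apart by their identifiers, so any on the panel are counted among all probes. A low level therefore does not tell weak expression from background.

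The margins of the rule were as follows. The probes that only just separated kidney from the other tissues were RTS0113584, with a gap of 0.07 between its lowest kidney region and its highest other region, RTS0112202 with 0.34 and RTS0112604 with 0.35. The probes just past the minimum difference of means were RTS0112724 at 1.01, RTS0113334 at 1.02 and RTS0112807 at 1.02. Just short of it were RTS0112252, RTS0113123 and RTS0111954, each at 0.99. With upper quartile scaling 117 of the 130 probes met the rule, and with scaling by library size 109 did. With a minimum difference of 2, there were 43 kidney-high probes.

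Some kidney-high probes were expressed in every tumour and others in none. A probe was counted as expressed in a tumour where it lay at least 1 log2 unit above the median probe of the same region, a measure that does not depend on scaling between regions. By this measure 25 probes (19.2%) were expressed in all 24 tumours, against 6.02% of all 2010 probes. A further 37 (28.5%) were expressed in 12 to 23 tumours, against 15.5% of all probes. Another 36 (27.7%) were expressed in 1 to 11 tumours, against 27.5% of all probes. The remaining 32 (24.6%) were expressed in no tumour, against 51% of all probes. With a minimum of 2 above the median probe, 3 of the 25 were expressed in every tumour. The kidney-high probes were thus found at the expressed end more often than the panel as a whole, but being well above the median probe in kidney is close to what selected them. In kidney, 126 to 130 of them were expressed per region, in spleen 40 to 43 and in liver 28 to 47. A region holds a mixture of cells, so fewer cells of a type and less RNA per cell cannot be told apart in any of these values.

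The classes are cut from the tumour levels, so the order of those levels from class to class is given as a description. Among the 25 probes expressed in all tumours, the median tumour mean was 10.13, against a median kidney mean of 10.76. In the class of 12 to 23 tumours these medians were 8.85 in the tumours and 9.72 in kidney. In the class of 1 to 11 tumours they were 7.76 in the tumours and 9.21 in kidney, and in the class expressed in none they were 6.43 in the tumours and 9.17 in kidney. The kidney medians of the last 3 classes lay between 9.17 and 9.72. All 32 probes of the class expressed in none were below every kidney region in all 24 tumours, as were 20 of the 36, 10 of the 37 and 4 of the 25 in the other classes.

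The class expressed in all 24 tumours consisted of RTS0112184, RTS0113895, RTS0113714, RTS0112429, RTS0113057, RTS0111924, RTS0112143, RTS0112296, RTS0113245, RTS0112608, RTS0113126, RTS0112603, RTS0111985, RTS0113198, RTS0112285, RTS0113758, RTS0112814, RTS0113134, RTS0112311, RTS0112888, RTS0113428, RTS0113741, RTS0112775, RTS0113485 and RTS0112048, in falling order of tumour mean. RTS0112184 was the highest of them. It had a lowest value of 10.49 (tumour 214), a median of 11.58 and a highest value of 13.10 (tumour 404) in the tumours, against 10.71, 10.70, 10.59 and 10.69 in the 4 kidney regions. In 23 of the 24 tumours it was above every kidney region, and in all 24 it was above every spleen and liver region. RTS0113895 came next, with a lowest value of 10.46 (tumour 204), a median of 11.47 and a highest value of 12.31 (tumour 1801) in the tumours, against 12.73, 12.47, 12.76 and 12.51 in kidney. It stayed below every kidney region in all 24 tumours even though it was the second highest of the 130 in tumours. RTS0113714 ranged from 9.93 (tumour 214) through a median of 11.08 to 12.62 (tumour 404) in the tumours, against 11.70, 11.39, 11.70 and 11.39 in kidney. Its tumours lay on both sides of kidney, with 5 above every kidney region and 17 below.

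Within this class the tumour mean minus the kidney mean ran from -1.85 for RTS0113245 to 0.94 for RTS0112184. RTS0112143 was at 10.41 ± 0.97 (SD, n = 24) in the tumours and at 10.07 ± 0.11 (SD, n = 4) in kidney, and RTS0112814 was at 9.87 ± 0.68 (SD, n = 24) in the tumours and at 9.47 ± 0.03 (SD, n = 4) in kidney. These members, with RTS0112184 and RTS0113057, were the 4 of the class with a tumour mean above the kidney mean. The steadiest probes of the class across tumours were RTS0113895 with an SD of 0.48, RTS0112775 with 0.50, RTS0113741 with 0.53, RTS0113485 with 0.54 and RTS0113428 with 0.55. The most variable was RTS0112429 with an SD of 1.14, which had a lowest value of 8.81 in tumour 501 and a highest of 12.61 in tumour 404.

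The class of 12 to 23 tumours held both steady and widely varying probes. RTS0112284, RTS0112609 and RTS0113757 were expressed in 23 tumours, and RTS0112708, RTS0112896, RTS0113131, RTS0113232, RTS0113557, RTS0113576 and RTS0113748 in 22. RTS0112588, RTS0113122, RTS0113125, RTS0113558 and RTS0113756 were expressed in 21, RTS0113124, RTS0113132 and RTS0113887 in 20, and RTS0111997, RTS0112600, RTS0112643, RTS0113133 and RTS0113256 in 19. RTS0112681, RTS0112704 and RTS0113136 were expressed in 18, RTS0113514 in 17, RTS0112309 and RTS0112998 in 16, RTS0112706 and RTS0113242 in 15, and RTS0113189 in 14. RTS0112031, RTS0112566, RTS0113101, RTS0113353 and RTS0113584 were expressed in 12 tumours.

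RTS0113576 and RTS0112708 had the widest ranges of the 130 probes. RTS0113576 had a lowest value of 7.17 (tumour 809), a median of 11.63 and a highest value of 14.04 (tumour 610) in the tumours, against 9.65, 9.46, 9.62 and 9.85 in kidney. This is a 116-fold range, in which 18 tumours were above every kidney region and 5 were below. Its SD was 1.88 over tumours, against a spread of 0.78 between regions of 1 tumour. RTS0112708 had a lowest value of 7.07 (tumour 701), a median of 10.55 and a highest value of 14.45 (tumour 309) in the tumours, against 11.07, 9.89, 10.92 and 9.76 in kidney. Its range was 167-fold, and 3 tumours stood apart at the top, tumour 309, tumour 610 at 14.38 and tumour 2201 at 13.22, while the next was at 11.85. RTS0112708 had no other kidney-high probe that varied with it at a Pearson r of 0.7 or more.

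RTS0113232 was far below kidney and still expressed in most tumours. It had a lowest value of 7.98 (tumour 702), a median of 8.70 and a highest value of 10.04 (tumour 404) in the tumours, against 12.46, 12.87, 12.65 and 13.04 in kidney. Liver was also high for it, at 10.98 ± 0.39 (SD, n = 4), and no tumour was above every spleen and liver region. RTS0112706 was at 8.74 ± 0.98 (SD, n = 24) in the tumours and at 8.53 ± 0.21 (SD, n = 4) in kidney, with 12 tumours above every kidney region and 9 below.

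The class of 1 to 11 tumours consisted of probes that were less than 1 log2 unit above the median probe in most tumours. Many still lay above it, the median over the class being 0.59 above the median probe. RTS0112379 was expressed in 11 tumours, RTS0112413, RTS0112523, RTS0112984, RTS0113130 and RTS0113559 in 10, RTS0112897 and RTS0113478 in 9, and RTS0111923, RTS0112556, RTS0112595 and RTS0113246 in 8. RTS0112490, RTS0113137, RTS0113452 and RTS0113531 were expressed in 7, RTS0111888 and RTS0112521 in 6, RTS0112016, RTS0112339, RTS0112535 and RTS0113050 in 5, and RTS0113342, RTS0113509 and RTS0113797 in 4. RTS0112341 and RTS0113601 were expressed in 3 and RTS0113020 in 2. RTS0112202, RTS0112427, RTS0112807, RTS0113064, RTS0113181, RTS0113351, RTS0113505 and RTS0113613 were each expressed in 1.

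Some of these were high in a few tumours. RTS0112984 had a lowest value of 6.48 (tumour 2203), a median of 7.94 and a highest value of 11.22 (tumour 404) in the tumours, against 11.77, 11.58, 11.82 and 11.37 in kidney. Tumour 404 thus came near to kidney, while the next, tumour 809, was at 9.79. RTS0112379 had a lowest value of 5.54 (tumour 404), a median of 8.01 and a highest value of 10.26 (tumour 1002) in the tumours, with a kidney mean of 10.24. RTS0112556 had a lowest value of 6.15 (tumour 706), a median of 7.49 and a highest value of 10.53 (tumour 809), and 4 tumours were above every kidney region, whose mean was 8.43. RTS0112807 was at 10.98 in tumour 309 and at 8.21 or less in the other 23 tumours, against a kidney mean of 8.22. Tumour 309 was also the 1 tumour in which it was expressed.

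The 32 probes expressed in no tumour were RTS0111896, RTS0111899, RTS0111950, RTS0111959, RTS0111969, RTS0112274, RTS0112275, RTS0112351, RTS0112401, RTS0112411, RTS0112415, RTS0112433, RTS0112444, RTS0112481, RTS0112534, RTS0112604, RTS0112724, RTS0112822, RTS0112839, RTS0112848, RTS0112876, RTS0112937, RTS0112972, RTS0113105, RTS0113227, RTS0113231, RTS0113244, RTS0113316, RTS0113325, RTS0113334, RTS0113477 and RTS0113675. Their median lay 0.75 below the median probe in the tumours and 2.13 above it in kidney. In 28 of the 32 the tumour mean was also below both the spleen mean and the liver mean. With upper quartile scaling or scaling to the library size this held for all 32. Both of these scalings also lowered the tumour levels of the whole panel against kidney. The class was cut by its low tumour levels, which favours such an order, and the share over all probes is not given.

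RTS0111950 had the highest kidney level of the 130 probes and lay furthest below it in tumours. It had a lowest value of 5.47 (tumour 1001), a median of 6.17 and a highest value of 6.83 (tumour 809) in the tumours, against 13.70, 13.52, 13.57 and 13.46 in kidney. On the linear scale its median was 66.5 CPM in the tumours, and its mean was 12123 CPM in kidney. It was high in liver as well, at 11.41 ± 0.36 (SD, n = 4), and low in spleen, at 6.72 ± 0.35 (SD, n = 4), so its low level in the tumours was near that of spleen. RTS0112972 had a lowest value of 4.73 (tumour 2206), a median of 6.21 and a highest value of 6.90 (tumour 214) in the tumours, against 12.86, 12.49, 12.95 and 12.66 in kidney. It was low in spleen and liver too, with means of 6.59 and 6.79, so it was high in kidney alone among the 4 tissues. For both probes every tumour lay more than 5 log2 units below every kidney region.

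After these, the tumour mean minus the kidney mean was -6.00 for RTS0112481, -5.32 for RTS0113231 and -5.29 for RTS0113244. RTS0112481 and RTS0113231 were also above 10 in liver, at means of 10.17 and 10.24, while RTS0113244 was at 7.23 there. In the tumours they were at means of 6.49, 6.22 and 6.25, which was 0.69, 0.95 and 0.92 below the median probe.

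Direct comparison of tumours with kidney depended on the scaling. With TMM the tumour mean was above the kidney mean for 9 of the 130 probes, after upper quartile scaling for 3 and after scaling to the library size for 2. The median difference of tumours minus kidney was -1.36 over the 130 probes and -0.05 over all 2010 probes with TMM. With upper quartile scaling these were -1.74 for the 130 and -0.40 for all, and with library size -2.25 for the 130 and -0.88 for all. Under all 3 scalings the 130 probes lay further below kidney than the panel as a whole, which selecting probes for being high in kidney favours. RTS0113576 was above kidney under each scaling, by 1.60 with TMM, by 1.22 after upper quartile scaling and by 0.70 after scaling to the library size. RTS0112184 was above by 0.94 with TMM, by 0.56 after upper quartile scaling and by 0.04 after scaling to the library size. RTS0112814 was above by 0.40 with TMM and 0.02 with upper quartile scaling, and its difference was -0.49 with library size. For the other 6, RTS0112143, RTS0112681, RTS0112706, RTS0112708, RTS0113057 and RTS0113124, the difference was positive with TMM alone.

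Set against single regions with TMM, 66 of the 130 probes were below every kidney region in all 24 tumours, and 54 were above every kidney region in at least 1 tumour. Only 6 were above every kidney region in 12 or more tumours: RTS0112184 in 23, RTS0113576 in 18, RTS0112814 in 16, RTS0112143 and RTS0112603 in 13, and RTS0112706 in 12. Against spleen and liver, 7 probes were above every region of both in all 24 tumours, namely RTS0112184, RTS0113714, RTS0113057, RTS0111924, RTS0112603, RTS0113428 and RTS0112681. For 22 probes no tumour was above every spleen and liver region, and for 68 at least 12 tumours were. The shares over all probes of the panel are not given for these counts against single regions. The counts therefore describe the 130 probes alone and do not tell whether these probes differ from the panel. Choosing probes for being high in kidney also favours tumours lying below kidney.

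Single tumours differed in how many kidney-high probes they expressed. Tumour 309 expressed 77 of the 130, tumour 2203 expressed 75, and tumours 404 and 502 expressed 74 each. Tumours 610, 1701, 1801 and 1001 followed with 73, 72, 71 and 70, and tumours 2201, 1002, 601 and 1405 with 69, 66, 65 and 64. Tumours 701 and 2206 expressed 62 each, tumours 809 and 2204 expressed 61 each, and tumour 706 expressed 58. Tumours 1403, 702, 2202 and 501 expressed 54, 52, 51 and 49. At the other end, tumour 901 expressed 41, tumour 214 expressed 43 and tumour 204 expressed 45. The share of all probes that were expressed moved with it. It was 28.6% in tumour 309, 29.0% in tumour 2203 and 27.5% in tumour 404, against 13.6% in tumour 901, 14.4% in tumour 214 and 15.1% in tumour 204. The difference between tumours was thus shared by the whole panel, and depth was lower in some of the tumours at the low end, with a geometric mean total per region of 58089 in tumour 214 and 59203 in tumour 204, though 144611 in tumour 901. The part of depth in these counts was not tested. Above every kidney region stood 29 of the 130 probes in tumour 309, 27 in tumour 404 and 23 in tumour 1701, but 1 in tumour 2202 and 2 each in tumours 501, 901 and 1403.

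Next it was asked whether the levels of the kidney-high probes differed among tumours by more than among regions of 1 tumour. An F test over the 24 tumours was run on the 68 regions for all 2010 probes with edgeR's quasi-likelihood test, with the array as a covariate and Benjamini-Hochberg adjustment. In 14 tumours the only spread between regions was that between the arrays. The fitted coefficient of variation was 20.9% among regions of a tumour and 6.73% between the array sums of a tumour. The labels do not say whether such regions were separate pieces. Close repeats would give smaller p-values here and larger shares of variance below. Of the 130 probes, 124 (95.4%) differed among tumours at an adjusted p under 0.05, against 86.5% of all probes. Differences among tumours are thus the rule on this panel, and the share is not particular to the kidney-high probes. The 6 that did not pass with TMM were RTS0111959, RTS0111969, RTS0112433, RTS0112876, RTS0113105 and RTS0113231. Their adjusted p by this edgeR test lay between 0.0585 and 0.287, and all were expressed in no tumour. The probes expressed in at least 1 tumour all passed this test. With upper quartile scaling all 130 passed, as did 1977 of the 2010 probes. After scaling to the library size all 130 and all 2010 passed, so the 6 exceptions hold with TMM and not with these scalings. On array 1 alone, in the 10 tumours with 2 regions there, 69 of the 130 passed, against 36.2% of the 2010 probes. On array 2 alone 63 of the 128 kidney-high probes tested passed, against 32.2% of the 1957 probes tested. With all regions thinned to 17711 counts, 70 of the 83 kidney-high probes that kept enough counts passed, against 80.5% of the 730 probes that did. The adjusted p was 7.32e-26 for RTS0112984, 6.46e-25 for RTS0112143, 6.67e-23 for RTS0112708 and 1.12e-13 for RTS0113576, all by edgeR. RTS0111950 (adjusted p = 0.00582) and RTS0112972 (adjusted p = 0.0302) passed as well, by the same edgeR test, though their tumours spanned ranges of 2.57-fold and 4.50-fold at median counts of 10.0 and 13.5 per region.

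The share of the variance of log2 CPM that lay between tumours, rather than between regions of a tumour, had a median of 66.9% over the 130 probes and of 35.9% over all probes. It was tied to level. For the kidney-high probes above their own median level it was 81.0%, and for all probes at or above that level it was 76.0%. By class its median was 81.9% for probes expressed in all tumours, 80% in 12 to 23, 53.7% in 1 to 11 and 15.7% in none. The highest shares were 95.6% for RTS0112143, 93.1% for RTS0112284, 93.0% for RTS0113131, 91.6% for RTS0112984 and 91.2% for RTS0113758. For RTS0112143 the regions of a tumour differed by an SD of 0.19, against an SD of 0.97 between tumours.

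Both arrays held regions of each tumour, so array 2 was compared with array 1 with the tumour as a block, on counts summed per tumour and array. Of the 130 probes, 22 (16.9%) were higher on array 2, against 7.67% of the probes tested, and 1 was lower, against 1.1%, by edgeR's quasi-likelihood test at an adjusted p under 0.05. The differences were small, the log2 fold changes of the 22 lying between 0.11 and 0.25. The largest was 0.25 ± 0.05 (SE) for RTS0113557, with an edgeR adjusted p = 0.000218, and the lower one was RTS0111924 at -0.12 ± 0.04 (SE, edgeR adjusted p = 0.0412). With upper quartile scaling 4 were higher, against 1.84% of the probes tested, and 6 were lower, against 2.69%. With library size 2 were higher, against 0.946%, and 9 were lower, against 3.78%, so the direction on the arrays depended on the scaling. Without the tumour as a block no probe of the 130 passed. Leaving out tumour 2203 brought the 23 to 13, leaving out tumour 610 to 14 and leaving out tumour 502 to 15.

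Which probes varied together was described by the Pearson r between the levels of a pair over 24 tumours, after centring each array on its mean. RTS0111969 and RTS0112444, with a median count under 10 per tumour region, were left out. Of the 8128 pairs among the other 128 probes, 618 (7.6%) had an r of at least 0.7, against 0.804% of the 1894431 pairs of all probes with that depth. Pairs of well expressed probes reached 0.7 more often on the whole panel too. Among probes expressed in all 24 tumours, 42.7% of the pairs of kidney-high probes and 12.8% of the pairs of all probes reached it. In the class of 12 to 23 tumours the shares were 15.6% of kidney-high pairs and 4.68% of all pairs, and in the class of 1 to 11 they were 1.59% of kidney-high pairs and 0.821% of all pairs. Among probes expressed in no tumour, 0.69% of kidney-high pairs and 0.777% of all pairs reached it. No p-value is given for any r, since the points share libraries, depth and scaling. The number depended on the scaling, with 196 pairs under upper quartile scaling and 1358 under library size. It was 601 on array 1 alone and 411 on array 2 alone. The shares over all probe pairs under each of these settings are not given. These counts therefore do not tell whether the panel as a whole moved in the same way.

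A stricter count kept the 151 pairs (1.86%, against 0.102% of the pairs of all probes) whose r was at least 0.7 also on array 1 alone, on array 2 alone, with upper quartile scaling and after subtracting the median probe of each region. They joined 44 probes into a set of 40 and a set of 4. Of the 44, 18 were expressed in all tumours, 20 in 12 to 23 and 6 in 1 to 11, and 0 were from the class expressed in none. The set of 4, named after their values were seen, was RTS0113232, RTS0113256, RTS0113353 and RTS0113514. In the set of 40, RTS0113131 had 19 kept partners, and RTS0112285 and RTS0111924 had 18 each. The number of probes with no partner at an r of 0.7 or more under the main scaling was 56. The share of all probes without a partner is not given. Among the 56 were RTS0112708, RTS0112984, RTS0112556, RTS0112296 and RTS0113198, each of which nevertheless varied strongly among tumours. In 53 pairs the r was -0.7 or less. The stricter count asks for an r of at least 0.7, so it could not include them. Whether they held under the other settings, and the share over all probes, are not given. The lowest was -0.83, between RTS0113126, expressed in all tumours, and RTS0113334, expressed in none.

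Regions of 1 tumour give a view that the differences between tumours do not enter. For the 10 tumours with 2 regions on each array, the difference between the 2 regions was taken, which gave 20 differences, a comparison chosen after seeing the data. Each of the 10 tumours entered on both arrays, so the 20 differences are not 20 separate samples. Here r was computed without subtracting the mean difference, so it is not a Pearson r, and an offset shared by the differences enters it. This holds for every r between regions within a tumour given here. Over these differences, the 151 kept pairs had a median r of 0.64, against 0.08 for all pairs of kidney-high probes. In 33.1% of the kept pairs it was at least 0.7, against 3.15% of all pairs of kidney-high probes. The 2 sets are not matched for level, since the kept pairs held no probe of the class expressed in no tumour. Many pairs that varied together between tumours thus also did so between regions within a tumour by this measure. The parts of level and of such an offset in this were not tested.

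Grouping the probes so that every pair in a group had an r of at least 0.7 gave 9 groups of 3 or more, with 43 probes in all. The largest held 10 probes, RTS0111924, RTS0112048, RTS0112284, RTS0112285, RTS0112429, RTS0112603, RTS0112897, RTS0113134, RTS0113714 and RTS0113758, of which 8 were expressed in all 24 tumours. Its median r was 0.84 over both arrays, 0.86 on array 1 and 0.83 on array 2, and 32 of its 45 pairs were kept. Between regions within a tumour its median r was 0.72. The mean level of the 10 was 9.85 ± 0.76 (SD, n = 24) in the tumours and 10.78 ± 0.12 (SD, n = 4) in kidney. It was highest in tumour 404 at 11.39 and tumour 2203 at 11.06, and lowest in tumour 901 at 8.85 and tumour 214 at 8.91. With TMM the 2 tumours at the top were thus above the kidney mean, and the 2 at the bottom were nearly 2 log2 units below it. The place of tumours against kidney depends on the scaling and is not given for this group under the other scalings.

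The 5 closest pairs of the 130 probes were all in this group. RTS0113134 and RTS0113758 had an r of 0.93 over 24 tumours, 0.93 on array 1, 0.90 on array 2 and 0.83 between regions within a tumour. RTS0113714 and RTS0113758 had an r of 0.93, RTS0112285 and RTS0113134 of 0.92, and RTS0111924 of 0.91 both with RTS0113134 and with RTS0112429. Between regions within a tumour RTS0111924 and RTS0112429 reached 0.94, the highest of the 5. Leaving out the 2 tumours farthest from the median left each of the 5 at 0.89 or more. The probe of the whole panel closest to the mean of the group was RTS0112944, at an r of 0.94, followed by RTS0111982 at 0.92 and RTS0113412 at 0.92. RTS0112944 is the probe that met the kidney-high rule and was set aside.

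The second group held 7 probes, RTS0111888, RTS0111985, RTS0112588, RTS0112681, RTS0113124, RTS0113748 and RTS0113887, with a median r of 0.80 and 9 of 21 pairs kept. Its mean level was highest in tumour 1801, at 10.38, and lowest in tumour 214, at 7.99, against 9.77 ± 0.09 (SD, n = 4) in kidney. It differed from the first group in the tumours at its top, which were 1801 and 1701. Its closest probe on the panel was RTS0113034, at an r of 0.94.

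The third group was RTS0113126, RTS0113131, RTS0113136, RTS0113137 and RTS0113485, with a median r of 0.84 and 6 of 10 pairs kept. Its mean was highest in tumour 404 at 10.10 and lowest in tumour 214 at 8.13. Its probes did not vary together between regions within a tumour, the median r there being 0.08. RTS0112944 was its closest probe as well, at an r of 0.95. The fourth group, RTS0111923, RTS0112184, RTS0113125 and RTS0113130, had a median r of 0.82, but 0.12 between regions within a tumour. It was highest in tumours 404 and 309, at 10.41 and 10.13, and lowest in tumour 214 at 8.21.

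The fifth group, RTS0112600, RTS0112608, RTS0112643 and RTS0112814, had a median r of 0.79 and 1 of 6 pairs kept. The sixth, RTS0112896, RTS0113132, RTS0113245 and RTS0113757, also had a median r of 0.79, and it held at 0.69 between regions within a tumour. The fifth was highest in tumour 309 at 10.34 and lowest in tumour 214 at 8.16. The sixth was highest in tumour 309 at 11.09 and lowest in tumour 214 at 8.20. The seventh, RTS0112143, RTS0112888 and RTS0113428, was highest in tumour 502 at 11.43 and lowest in tumour 1403 at 8.70. The eighth, RTS0112523, RTS0113133 and RTS0113557, was highest in tumour 1001 at 9.77 and lowest in tumour 2202 at 7.57, with 0 of 3 pairs kept and a median r of 0.15 between regions within a tumour. The ninth, RTS0113057, RTS0113531 and RTS0113756, stood out in tumour 309 at 11.48, with the next tumour, 1801, at 10.24 and kidney at 10.00 ± 0.03 (SD, n = 4). Its closest probe on the panel was RTS0111919, at an r of 0.94.

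The groups were not independent of each other, and 6 of the 9 were lowest in tumour 214. All 9 moved with the depth of the tumours, the r of a group's mean with the log2 of the total count lying between 0.46 and 0.68. Over single probes this r ran from -0.54 to 0.71 with a median of 0.31, against a median of 0.02 over all probes. Of the 130, 31 were at 0.5 or above and 3 at -0.5 or below. The shares of all probes past these values are not given. With the share of counts held by the 10 highest probes of a region the median r of the 130 was -0.01. The part of depth in the shared variation was not tested. Between regions within a tumour the median r of the 9 groups ran from 0.08 to 0.72. After subtracting from each region its mean over all 130 probes, an alternative chosen after seeing the data, 165 pairs had an r of at least 0.7, and the median r of the 9 groups ran from 0.59 to 0.72. The share over all probe pairs is not given for this setting.

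RTS0111950 and RTS0112972 had no close partner among the well expressed members. RTS0111950 had 0 kidney-high probes at an r of 0.7 or more, and RTS0112972 had 2. The panel probes closest to RTS0111950 were RTS0112003 at an r of 0.74, RTS0112331 at 0.74 and RTS0112363 at 0.71. Those closest to RTS0112972 were RTS0113712 at 0.86, RTS0113211 at 0.84 and RTS0112571 at 0.82. At median counts of 10.0 and 13.5 per tumour region these relations rest on few counts, and they are given as values alone.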

How the data were processed

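The deposited files hold whole-number counts for each probe, made with the GeoMx NGS Pipeline (version 2.3.4, per the file headers), and record no normalization by the authors. Probes absent from a region's file were taken as 0. The no-template control was not used.

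Levels are log2 CPM from edgeR 4.0.16 in R 4.3.3, with TMM over the 80 tissue regions and a prior count of 2. Differences among tumours and between arrays were tested with edgeR's quasi-likelihood test over all probes that passed filterByExpr, with Benjamini-Hochberg adjustment and a threshold of 0.05. The test among tumours used regions singly with array as a covariate. The test between arrays used sums per tumour and array with the tumour as a block, because tumour numbers in the labels recur on both arrays. Correlations and groups were computed in Python 3.11.15 with pandas 2.3.3, NumPy 2.4.6 and SciPy 1.17.1, the groups by complete linkage. The share of variance between tumours came from 1-way variance components on array-centred log2 CPM. Total counts of 17711 to 1069118 per tumour region set the precision. Control regions may share a dog, and repeat regions of a tumour may be technical, so the p-values measure the spread between these regions.

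Both tests were tested on simulated data. Among tumours 60% of the probes changed 1.5-fold passed, 100% of those changed 2-fold and 0.387% of those not changed. Between arrays 54% of the probes changed 1.2-fold passed, 100% of those changed 1.5-fold and 0.774% of those not changed. The members and lists were chosen with earlier results of these data known. Members given with their values are those of highest and steadiest level, furthest from kidney, widest range, largest variance share, closest pairs and correlated groups, and all members are listed by class. Alternatives were other scalings, filters, DESeq2 1.42.0, single arrays, thinned counts and leaving out tumours or control regions in turn.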

Additional observations from a re-analysis of the deposited data

Results flagged for a closer look

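The level of RTS0112184 in kidney replicate 3, 10.59, lay apart from the other 3 kidney regions, which were between 10.69 and 10.71. It was the 1 value standing apart among 17 sets of 4 regions that were looked at, and at the 95% critical value of Dixon's test chance sets about 1 in 20 such groups apart. The 23 tumours above every kidney region for this probe are the same with or without that region, since it was the lowest of the 4.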

How the results depend on the processing

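The number of kidney-high probes was 43 with a minimum difference of 2 and between 127 and 138 when a control region was left out. Of the 25 probes expressed in every tumour, 3 remained at a minimum of 2 above the median probe, and leaving out a tumour gave 25 to 27. The number differing among tumours (124) was 69 on array 1 alone, 63 on array 2 alone and 70 with all regions thinned to 17711 counts, where 83 of the 130 probes had enough counts to be tested; it was 120 to 126 when a tumour was left out and 129 with DESeq2. Of the 23 probes differing between arrays, the count was 10 with upper quartile scaling, 11 with library size and 13 to 24 when a tumour was left out, with 13 without tumour 2203, 14 without tumour 610 and 15 without tumour 502. Without the tumour as a replicate block it was 0 by edgeR, with 0 at an unadjusted p under 0.05, against 26 by DESeq2 with the block. The pairing of tumour numbers comes from the labels. Pairs varying together (618) numbered 196 with upper quartile scaling, 1358 with library size, 411 on array 2 alone, 256 between regions within a tumour and 165 with the mean over members subtracted, the last 2 chosen after seeing the data, and 566 to 670 when a tumour was left out. The shares over all probe pairs under each of these settings are not given. The causes of all these changes, the number of regions or counts used among them, were not tested. Of 2592 values of single probes and pairs, 2507 kept their side of the threshold, 80 no longer passed, 28 of these on array 2 alone and 21 on array 1 alone, 3 passed newly, 2 values of r fell below 0.7, and 0 reversed. Low counts limit the probes expressed in no tumour.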

Other observations

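Neighbouring identifier numbers were looked at after the correlated pairs had been seen, as the numbers within the groups often lay close together. Of the 130 kidney-high probes, 37 had a kidney-high probe at the number just before or after their own, in 15 runs. The 22 pairs of kidney-high probes with adjacent numbers had a median r of 0.68 over 24 tumours, and 45.5% were at 0.7 or more. Over the 1890 pairs of adjacent numbers on the whole panel the median r was 0.10 and 3.39% were at 0.7 or more. Over all 8128 pairs of kidney-high probes the median r was 0.09 and 7.6% were at 0.7 or more. Among kidney-high probes expressed in all 24 tumours 42.7% of pairs were. These sets are not matched for level, so what adjacency adds cannot be read from them. Of the 16 probes between RTS0113122 and RTS0113137, 11 were kidney-high, with tumour means between 7.69 and 10.16. The 55 pairs among these 11 had a median r of 0.74 over tumours and of 0.39 between regions within a tumour. How numbers were assigned to probes is not given in the sources used here, and no test was made.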
